A study of Mus musculus with 6 samples.

Results

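Cd36, Msr1, Marco, Cd163, Mertk, Axl, Stab1, Scarb1, Timd4 and Gas6, 10 genes for receptors and a ligand of scavenging and apoptotic cell uptake, were followed through dendritic cell (DC) culture with and without a p38 kinase inhibitor. These 10 genes, of 19057 named on the array, were taken by symbol, and the brightest detected probe stood for each gene among their 16 probes. Bone marrow cells of C57BL/6 mice were grown with GM-CSF at 20 ng/ml, together with 0.1% DMSO or with SB202190, a p38 MAP kinase inhibitor, labelled as 1.5 mM (this unit could not be checked here). RNA came from pre-DC after 2 days, from semi-adherent immature DC at day 7, and from mature DC, which had received TNF-a plus IL-1b (10 ng/ml of each) for 48 h. Each of the 3 stages had 1 Illumina bead array with DMSO and 1 with SB202190, 6 in all. The labels give no separate cultures and do not say whether the SB202190 cultures held DMSO or whether the inhibitor stayed during maturation. The study asked, by its title, how p38 inhibition in DC progenitors affects the immunogenicity of the DC.

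Scavenger receptors bind modified lipoproteins, polyanions and microbial surfaces and carry them into the cell. Apoptotic cells are recognised mainly by phosphatidylserine on their surface, which TIM-4 (Timd4) binds directly and which the receptor tyrosine kinases AXL and MERTK bind through the bridging ligand GAS6. Macrophages carry many of these receptors, and AXL and MERTK signals restrain the inflammatory response of DC and macrophages.

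The arrays differed little in depth of signal. Between 14623 and 15328 of 45281 probes were detected (detection p under 0.01), with median intensities from 120.5 to 146.2, and precision throughout is set by there being only 6 arrays. Of the fixed DC markers with a named probe, 9 of 12 were detected on the pre-DC arrays, 11 on the immature and 10 on the mature DC arrays. Flt3 was below background on all 6 arrays and the DC integrin Itgax on both pre-DC arrays. Macrophage markers were detected for 7 of 10 genes in pre-DC and for 8 or 9 later. Their summed normalized intensity was 31227 and 39251 on the pre-DC arrays, 62604 and 65404 in immature DC and 68399 and 78806 in mature DC. In pre-DC these sums were mostly Lyz2, at log2 intensities of 15.12 with DMSO and 14.77 with SB202190. C1qa, Vsig4 and Siglec1 were at background on both pre-DC arrays. Cd14 rose from 9.63 and 8.95 in pre-DC to 14.47 and 14.09 in mature DC. The sums therefore follow a few bright genes and do not measure macrophage content. By detection, cultures at every stage held RNA of genes on the macrophage list beside that of DC genes. Neutrophil marker sums fell from 206779 and 215449 in pre-DC to 17074 and 17213 in mature DC. From pre-DC to immature DC (DMSO first), B cell marker sums fell from 3533 and 1900 to 166 and 174. Erythroid sums fell from 3349 and 2818 to 118 and 116. Megakaryocyte and platelet sums were 1157 and 911 in immature DC and 10407 and 10934 in mature DC. Pre-DC RNA thus came from several marrow lineages, and the part of this mix in the steps was not tested. Of 9 stromal and endothelial markers, Col1a1, Col1a2, Col3a1, Cdh5, Kdr, Lyve1 and Pdgfrb were at background on all 6 arrays, Cxcl12 was detected on the immature DC array with SB202190 alone, and Vcam1 was detected on all 6, at log2 intensities from 6.52 to 9.33. In such bulk RNA fewer cells of a type and less RNA per cell cannot be told apart.

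Of the 10 members, 7 were detected on at least 1 array, and these same 7 entered the tests. Axl, Msr1 and Stab1 were detected on all 6 arrays, Mertk on 4, Marco and Scarb1 on 3 each and Gas6 on 2. Cd36, a receptor for oxidised lipoproteins and fatty acids, Cd163, the haemoglobin scavenger receptor of macrophages, and Timd4 were above background on 0 of 6 arrays. Their detection p-values ran from 0.243 to 0.872 for Cd36, from 0.155 to 0.738 for Cd163 and from 0.0150 to 0.682 for Timd4. The lowest of these, for Timd4, was on the immature DC array with DMSO. Cd36 and Timd4 had 1 probe each, and the second Cd163 probe was also below background everywhere. A probe below background gives no level, and no fold is given for these 3 genes.

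The 250 bases before the annotated start are shown for Mertk and its ligand gene Gas6, which rose together from pre-DC to immature DC, and for Marco, the only member with a pair difference of at least 2-fold with SB202190. The sequences are those of RefSeq on GRCm38.p6, whose promoter table matched 8 of the 10 members (not Msr1 and Scarb1). For Axl and Cd36 the start used in that table is not the outermost one, so 191 and 250 of the 250 bases lie inside the annotated gene, and neither is shown. The windows shown lie at chr2:128698665-128698914 on the plus strand for Mertk, chr8:13494536-13494785 on the minus strand for Gas6 and chr1:120505025-120505274 on the minus strand for Marco. Each is read 5′ to 3′ on the gene's strand, and capitals mark matches on either strand to the GC box GGGCGG or to the PU.1 core GAGGAA.
Mertk: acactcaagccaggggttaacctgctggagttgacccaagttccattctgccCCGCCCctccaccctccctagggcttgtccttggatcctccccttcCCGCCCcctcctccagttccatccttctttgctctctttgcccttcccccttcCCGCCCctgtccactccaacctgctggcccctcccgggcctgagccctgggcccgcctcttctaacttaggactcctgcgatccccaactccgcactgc
Gas6: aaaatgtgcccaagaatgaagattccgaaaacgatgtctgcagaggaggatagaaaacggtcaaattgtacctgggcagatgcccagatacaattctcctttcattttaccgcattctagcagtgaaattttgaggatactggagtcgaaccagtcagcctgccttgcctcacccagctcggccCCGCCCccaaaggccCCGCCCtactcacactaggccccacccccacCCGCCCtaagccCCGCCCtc
Marco: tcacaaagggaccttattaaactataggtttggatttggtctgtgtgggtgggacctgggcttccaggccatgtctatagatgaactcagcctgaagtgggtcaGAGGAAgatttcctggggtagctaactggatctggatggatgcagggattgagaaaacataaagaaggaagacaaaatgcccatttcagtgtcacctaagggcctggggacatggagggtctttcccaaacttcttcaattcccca
The GC box was found in the windows of Axl, Mertk, Gas6 and Cd36, 4 of 8, against 32.7% of the 32851 windows in the table. Gas6 held 4 matches and Mertk 3. The PU.1 core, a motif of the myeloid factor PU.1, was found for Marco, Axl and Stab1, against 23.3% of all windows. The AP-1 motif TGANTCA and the cyclic AMP element TGACGTCA, motifs of factors downstream of stress kinases, had 0 matches in the 8 windows, against 6.75% and 1.55% of all windows. The nuclear receptor element AGGTCA was found for Cd36 and Timd4, against 14% of all windows. No 2 of these matches overlap in the windows shown. A match is a run of letters and not a site, and a window without one says nothing of the factor.

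From pre-DC to immature DC, Mertk, Msr1, Axl and Gas6 rose. The receptor tyrosine kinase gene Mertk had log2 intensities of 5.28 with DMSO and 5.19 with SB202190 in pre-DC, 9.29 and 9.37 in immature DC, and 9.11 and 8.61 in mature DC. It was below background on both pre-DC arrays and far above it on the other 4. Against the lowest detected signal, Mertk was at least 14.9-fold higher in immature DC than in pre-DC (means 9.33 and 5.23, fitted log2 difference 4.10, SE 0.18, limma adjusted p = 1.35e-04). The fitted difference was 3.24 with an offset of 50 and 2.37 without background correction, so the bound holds for the main processing only. Mertk had the steepest rise among the members.

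Axl, the kinase of the same family, was above background throughout, with log2 intensities of 11.38 (DMSO) and 11.91 (SB202190) in pre-DC, 13.56 and 13.24 in immature DC and 13.11 and 12.58 in mature DC. All 4 later arrays lay above both pre-DC arrays. The step to immature DC was 1.75 on the log2 scale (SE 0.26, 3.37-fold, limma adjusted p = 0.00344). The rise was 2.18 between the DMSO arrays and 1.33 between the SB202190 arrays, a gap that has 1 array at each point and no test. A second Axl probe was below background on all 6 arrays.

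Gas6, the ligand of AXL and MERTK, had log2 intensities of 4.90 and 5.05 in pre-DC, 6.84 with DMSO and 6.41 with SB202190 in immature DC, and 5.18 and 5.22 in mature DC. It was above background on the immature DC arrays alone. It was at least 2.28-fold higher in immature DC than in pre-DC (means 6.63 and 4.97, limma adjusted p = 0.00117) and then at least 2.18-fold lower in mature DC (mean 5.20, limma adjusted p = 0.00597). The fitted Gas6 steps were 1.03 and -0.91 with an offset of 50, and 0.61 and -0.53 without background correction. For the receptors the fall at maturation did not pass the test in the main fit. For both Axl and Mertk each mature DC array lay below each immature DC array, and no test compared them with Gas6. From immature to mature DC, Axl had a log2 difference of -0.55 (SE 0.26, limma adjusted p = 0.189) and Mertk -0.47 (SE 0.18, limma adjusted p = 0.113). With 1 array left out these values ran from -0.87 to -0.23 for Axl and from -0.72 to -0.22 for Mertk, the extremes being those without the mature DC array with DMSO and without that with SB202190. The Axl value passed when either pre-DC array was left out (limma adjusted p = 0.0304), and over its alternatives the adjusted p ran from 0.0304 to 0.658.

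Msr1, the class A scavenger receptor, had log2 intensities of 6.28 and 6.09 in pre-DC, 8.56 and 8.20 in immature DC, and 8.74 and 8.20 in mature DC, each with DMSO first. The pre-DC arrays were the lowest, and the immature and mature DC arrays overlapped. Msr1 rose by 2.19 on the log2 scale to immature DC (SE 0.14, 4.57-fold, limma adjusted p = 3.29e-04) and showed a difference of 0.09 (SE 0.14, limma adjusted p = 0.683) to mature DC. The rise was 1.78 with an offset of 50 and 1.28 without background correction, so the fold holds for the main processing only. Its other probe was below background on all 6 arrays.

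Marco, the collagenous macrophage receptor related to Msr1, climbed at maturation. Its log2 intensities were 4.75 and 4.87 in pre-DC, 6.47 with DMSO and 5.16 with SB202190 in immature DC, and 8.16 with DMSO and 7.13 with SB202190 in mature DC. Both mature DC arrays were above every earlier array, and Marco was below background in pre-DC and on the immature DC array with SB202190. The step from immature to mature DC was fitted at 1.83 on the log2 scale (SE 0.34, limma adjusted p = 0.0187), with 1 of the 2 immature DC arrays above background. That call was lost without the immature DC array with SB202190 (1.40, adjusted p = 0.0838), without the mature DC array with DMSO (1.61, adjusted p = 0.110) or without that with SB202190 (2.05, adjusted p = 0.0794), and the adjusted p over all alternatives ran from 1.03e-04 to 0.110. The step from pre-DC, fitted at 1.01 (SE 0.34), missed the threshold (limma adjusted p = 0.0530), with 1 of the 2 immature DC arrays above background. It was fitted at 0.36 without the pre-DC array with DMSO (adjusted p = 0.210), at 0.57 without the immature DC array with DMSO (adjusted p = 0.290), and at 1.66 and past the threshold without the pre-DC array with SB202190 (adjusted p = 4.87e-04). It also passed without the immature DC array with SB202190 (1.44, adjusted p = 0.0412), with 75th percentile scaling (1.14, adjusted p = 0.0320) and with trend and robust moderation (adjusted p = 0.0339), and without background correction it was 0.36, in a range of adjusted p from 4.87e-04 to 0.290.

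Scarb1, the class B receptor that takes up lipid from HDL, ran the other way. Its log2 intensities were 6.09 and 5.68 in pre-DC, 5.65 with DMSO and 5.11 with SB202190 in immature DC, and 4.67 and 4.56 in mature DC. The gene was above background in pre-DC and on the immature DC array with DMSO and below it on the other 3. A second Scarb1 probe was below background on every array, so the course rests on the brightest probe alone. The fitted steps were -0.50 (SE 0.15, limma adjusted p = 0.0378) and -0.77 (SE 0.15, limma adjusted p = 0.0223). The first call was lost in 11 of 15 alternatives and the second in 7 of 15, with adjusted p-values up to 0.272 and 0.265. The first was lost without either pre-DC array or either immature DC array (differences from -0.65 to -0.36). The second was lost without either immature DC array or the mature DC array with DMSO (differences from -0.91 to -0.58). No fold is given for the second step, in which the bound was under 1.

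**Figure D1:**
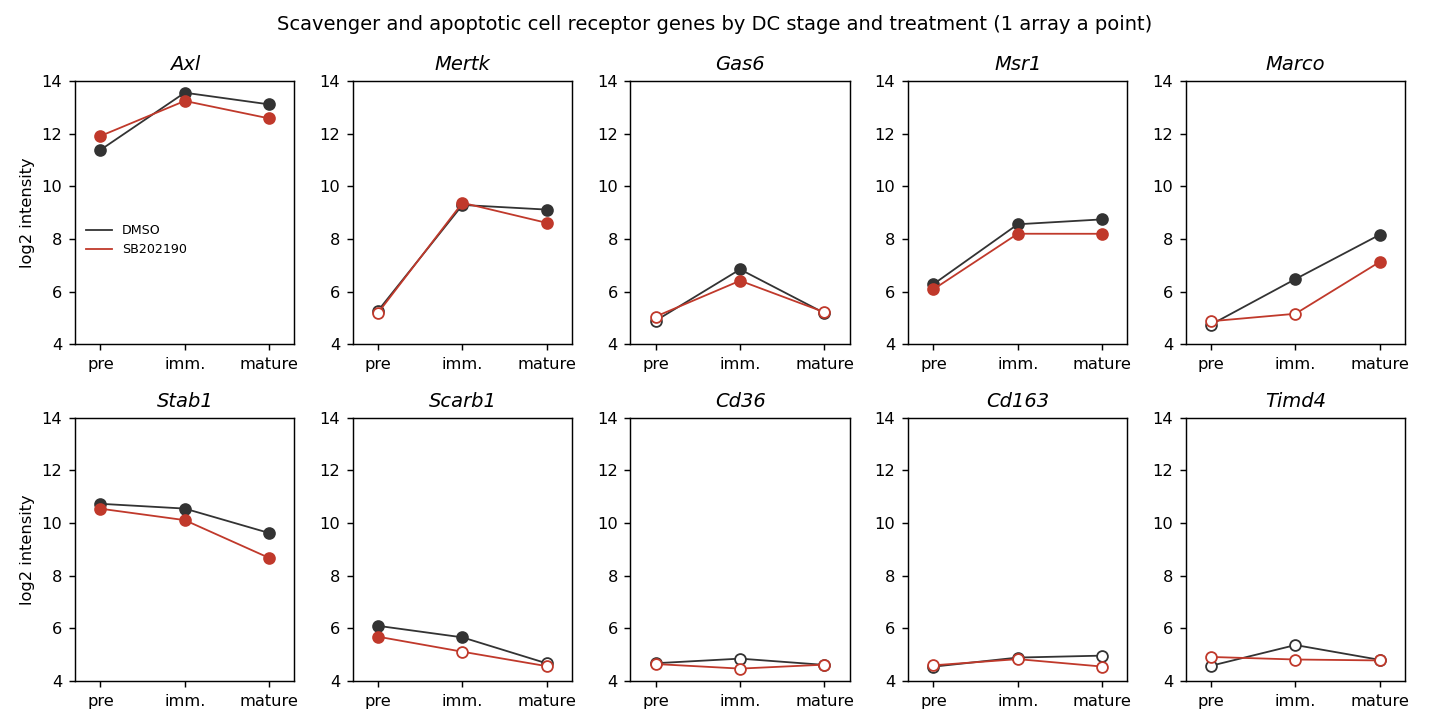
Log2 normalized intensity (y axis) of each of the 10 members at the 3 stages (x axis: pre-DC, immature DC, mature DC), with DMSO in black and SB202190 in red and 1 array a point; open points were not above background. Axl and Mertk are each higher in immature and mature DC than in pre-DC, Gas6 peaks in immature DC, Marco is highest in mature DC, and Cd36, Cd163 and Timd4 stay below background.

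Of the 7 members tested, 4 rose and 1 fell from pre-DC to immature DC. Of all 9223 genes tested, 25.6% rose and 25.4% fell in that step, 51% in either direction. From immature to mature DC, 1 member rose and 3 fell, against 10.5% and 11.1% of all genes (21.5% in either direction). Stab1 is counted by its brightest probe, not past the threshold in the first step and lower in the second. Its other probes rose past the threshold in both steps, in the fit over probes given below. Marco, Mertk, Gas6 and Scarb1 entered the test through the stages in which they were high, so these counts support nothing about the group. The members' median difference was 1.66 in the first step and -0.55 in the second, where all genes tested had 0.0018 and -0.0093.

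**Figure D2:**
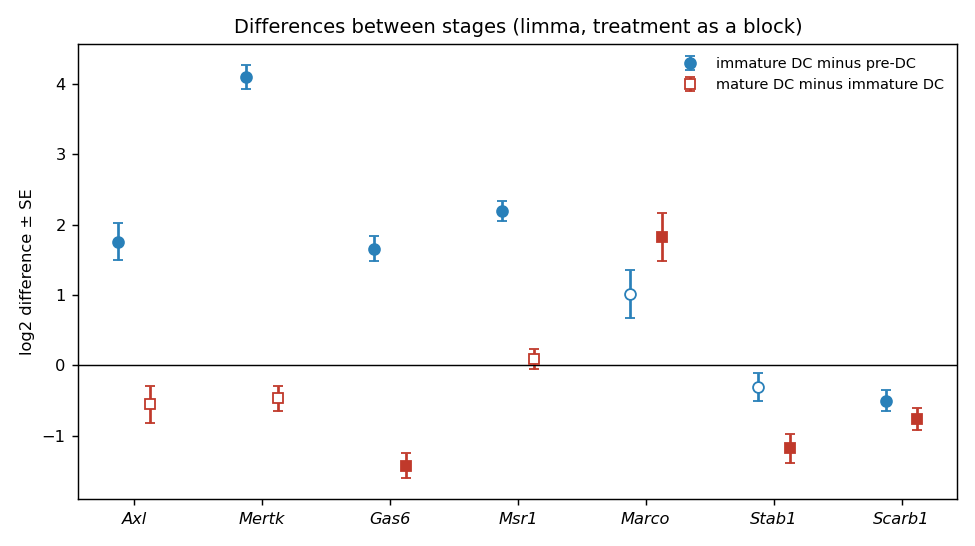
Fitted log2 difference with its standard error (y axis) for each of the 7 members tested (x axis), for immature DC minus pre-DC (blue circles) and mature DC minus immature DC (red squares); filled symbols passed an adjusted p of 0.05 in limma. With 1 probe for each gene, Mertk has the largest rise to immature DC, 4.10, and Marco the only rise past the threshold at maturation, 1.83. Stab1 is drawn by its brightest probe, and its other probes rose past the threshold in both steps.

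The direction for Stab1 depended on the probe. Stab1 encodes stabilin-1, a large endocytic receptor of macrophages and sinusoidal endothelium that clears apoptotic cells and matrix fragments. The brightest probe (ILMN_2544343) gave 10.73 and 10.54 in pre-DC, 10.55 and 10.11 in immature DC, and 9.62 and 8.67 in mature DC. It was lowest on the mature DC arrays, with a step from immature to mature DC of -1.18 (SE 0.20, limma adjusted p = 0.0144). The call was lost without either immature DC array (adjusted p = 0.0725 and 0.0776) or without the mature DC array with SB202190 (-0.86, adjusted p = 0.0616), and over all alternatives the adjusted p ran from 0.00152 to 0.212.

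The second probe (ILMN_1231355) gave 5.74 and 6.41, 7.53 and 7.18, and 9.22 and 8.54 over the same arrays. The other probe (ILMN_2727432) gave 5.59 and 5.79, 6.79 and 7.08, and 8.37 and 7.69. Both rose at each step, with every array above those of the stage before. In a limma fit over all detected probes, ILMN_1231355 rose by 1.28 to immature DC (SE 0.31, adjusted p = 0.0185) and by 1.53 to mature DC (SE 0.31, adjusted p = 0.0235). In the same fit ILMN_2727432 rose by 1.25 (SE 0.25, adjusted p = 0.00933) and by 1.09 (SE 0.25, adjusted p = 0.0337). These fits were chosen after the probes were seen to disagree.

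In RefSeq's GRCm38.p6 annotation the 3′ end of Stab1, on the minus strand, overlaps that of Nt5dc2, a gene of the 5′-nucleotidase domain family on the plus strand, by 108 bases. The Nt5dc2 probe gave 10.09 and 9.70 in pre-DC, 9.94 and 9.47 in immature DC and 8.96 and 8.29 in mature DC. Its profile, centred on its own mean, was the 3rd nearest to that of the brightest Stab1 probe among 4315 genes, with a root mean square difference of 0.14. For ILMN_1231355 and ILMN_2727432 the same distance was 1.71 and 1.51, at ranks 3308 and 3242. Nt5dc2 was chosen after the data were seen, so its rank supports nothing about what the probe reads. The platform annotation assigns all 3 probes to Stab1, and the brightest one to the same transcript as ILMN_2727432. Probe positions were not used here, and which transcript each probe reads was not tested. The stage course of Stab1 is therefore uncertain, and 2 of its 3 probes went against the representative one.

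**Figure D3:**
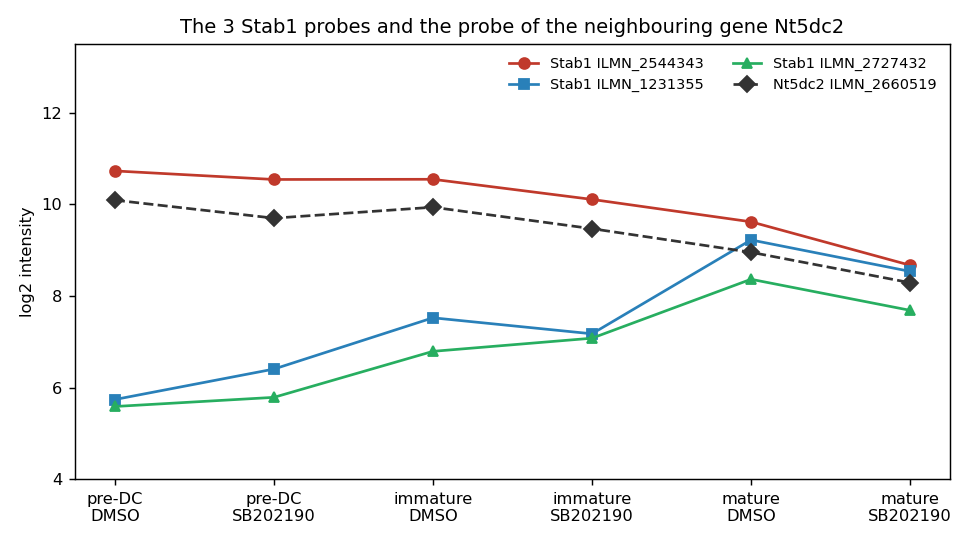
Log2 normalized intensity (y axis) on the 6 arrays (x axis) for the 3 Stab1 probes (solid lines) and the probe of the overlapping gene Nt5dc2 (dashed line). The brightest Stab1 probe falls with Nt5dc2 to 8.67 and 8.29 on the last array, while the other 2 probes climb to 9.22 and 8.37 on the mature DC array with DMSO.

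With SB202190, the members were mostly lower in immature and mature DC, by modest amounts. None passed the limma test across stages, which treats stage-specific responses as noise. That test called 0 of 9223 genes (0%), of which 855 had an unadjusted p under 0.05. Trend and robust moderation called 1 gene and the fit without the stage block 0. All 7 members tested had a mean difference below 0, where all genes tested had a median of 0.0065. The values were -0.74 (SE 0.28) for Marco, -0.52 (SE 0.17) for the brightest Stab1 probe, -0.37 (SE 0.12) for Msr1, -0.36 (SE 0.13) for Scarb1, -0.17 (SE 0.14) for Mertk, -0.11 (SE 0.22) for Axl and -0.08 (SE 0.14) for Gas6. Their limma adjusted p-values ran from 0.493 to 0.895. The first 4 had an unadjusted p under 0.05 in the lower direction, as did 4.76% of all genes. The members' median was -0.36. Some of their means include pairs with both arrays below background, in pre-DC for Marco, Mertk and Gas6 and in mature DC for Scarb1 and Gas6. For Axl, Mertk and Gas6 the sign turned when 1 stage was left out, to 0.11 for Axl and 9.3e-04 for Mertk without a mature DC array and to 0.10 for Gas6 without an immature DC array. The Stab1 mean was -0.31 without a mature DC array and -0.24 for the mean of its detected probes, and its other probes had -0.12 and -0.06. The Marco mean was -0.45 without an immature DC array and -0.36 without background correction, and the Scarb1 mean was -0.13 without background correction.

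Marco was the only member at least 2-fold lower with SB202190 in a pair. In immature DC it was at least 2.01-fold lower with SB202190 (6.47 against 5.16, the latter below background), and in mature DC 2.05-fold lower (8.16 against 7.13), with both arrays above background there. At least 2-fold lower genes made up 0.547% of 8957 genes in the immature DC pair and 0.972% of 8948 in the mature DC pair, and Marco was the only member among them in each. In the immature DC pair Marco and Scarb1 counted as measured through the DMSO array alone, where each was higher, so a lower value there was set by that choice. None of the 4 members measured in pre-DC was among the 0.45% of 8893 genes at least 2-fold lower there. No member was at least 2-fold higher in any pair, as were 0.157%, 0.592% and 0.939% of genes in the pre-DC, immature and mature DC pairs. Without background correction the measured log2 differences were -0.47 and -0.66, and with an offset of 50 -0.82 and -0.88, in place of -1.32 and -1.03, so neither setting kept a 2-fold difference. Leaving out a pre-DC array, which leaves the immature and mature DC pairs to estimate the treatment, gave -1.18 for Marco with a limma adjusted p of 0.0420. Over its alternatives the adjusted p ran from 0.0420 to 1, and only the fits without a pre-DC array passed.

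Msr1 was lower with SB202190 in all 3 pairs, by 0.19 in pre-DC, 0.36 in immature DC and 0.55 in mature DC on the log2 scale. The brightest Stab1 probe was also lower in all 3, by 0.19, 0.44 and 0.95, while Nt5dc2 had differences of -0.39, -0.47 and -0.66. The other Stab1 probes had 0.66, -0.35 and -0.69 for ILMN_1231355 and 0.20, 0.29 and -0.68 for ILMN_2727432, so the mature DC pair was the only one in which all 3 probes went the same way. Scarb1 had -0.41 in pre-DC and, with the SB202190 array below background, was at least 1.14-fold lower in immature DC; without background correction its log2 differences were -0.15 and -0.17. Of the 3 members measured in every pair, 2 were lower in all of them, against 15.5% of 8008 genes. That count takes the brightest Stab1 probe, and with either other probe Stab1 was not lower in all 3 pairs.

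Of Axl, Mertk and Gas6, only Axl was above background in every pair, and its measured difference changed sign between stages. Axl was 1.44-fold higher with SB202190 in pre-DC (difference 0.53), then 1.24-fold lower in immature DC (-0.31) and 1.45-fold lower in mature DC (-0.53). Mertk had 0.082 in immature DC and -0.51 in mature DC, where it was 1.42-fold lower. Gas6, measured in immature DC alone, had -0.43 there, and -0.20 without background correction. Whether these differences between stages exceed the spread between cultures could not be tested with 1 array on each side.

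Of the 5 members measured in both later pairs, Axl, Msr1, Marco and Stab1 were lower in both and Mertk in 1, against 29.7% of 8420 genes lower in both. With all 4 arrays required above background, which leaves out Marco, it was 3 of 4, against 29.3% of 7855 genes. ILMN_2727432, in place of the brightest Stab1 probe, was not lower in both. In the mature DC pair all 5 were lower, against 51.9% of 8948 genes, and in the immature DC pair 6 of 7, against 48.1% of 8957 genes. With both arrays required above background, the latter was 4 of 5, against 47.6% of 8302 genes. In pre-DC 3 of 4 were lower, against 46.6% of 8893 genes. Over the 7 members, values below background included, the median difference was -0.08 in pre-DC, -0.43 in immature DC and -0.53 in mature DC, where all genes tested had medians of 0.014, 0.010 and -0.0072.

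Other marker lists moved beside these differences. The macrophage markers had a median difference of 0.26 in immature DC and -0.21 in mature DC, with summed intensities of 62604 (DMSO) and 65404 (SB202190) and then 78806 and 68399. Of the 8 macrophage markers tested, 3 were lower with SB202190 in pre-DC, 2 in immature DC and 6 in mature DC. Among these markers the mannose receptor gene Mrc1 was lower with SB202190 in all 3 pairs, at 8.89 against 9.77 in pre-DC, 11.73 against 12.51 in immature DC and 8.02 against 9.64 in mature DC. Fcgr1 was higher in all 3, at 8.68 against 8.46, 10.55 against 10.18 and 9.89 against 9.40. The DC markers were higher with SB202190 in both later pairs (medians 0.74 and 0.52). In pre-DC their median was 0.26, with 3 of the 11 tested lower. These were Fscn1 (5.48 against 7.73), Cd83 (7.02 against 9.24) and Ccr7 (4.95, below background, against 5.87). In each of the later pairs 8 of 9 neutrophil markers were lower (medians -0.47 and -0.09). Vsig4 was detected on 1 array and Siglec1 on none, both markers of tissue macrophages. Of the macrophage markers, C1qa, C1qb and Cd14 also stand in the pathway lists described next. The part of cell composition in the members' differences was not tested.

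**Figure D4:**
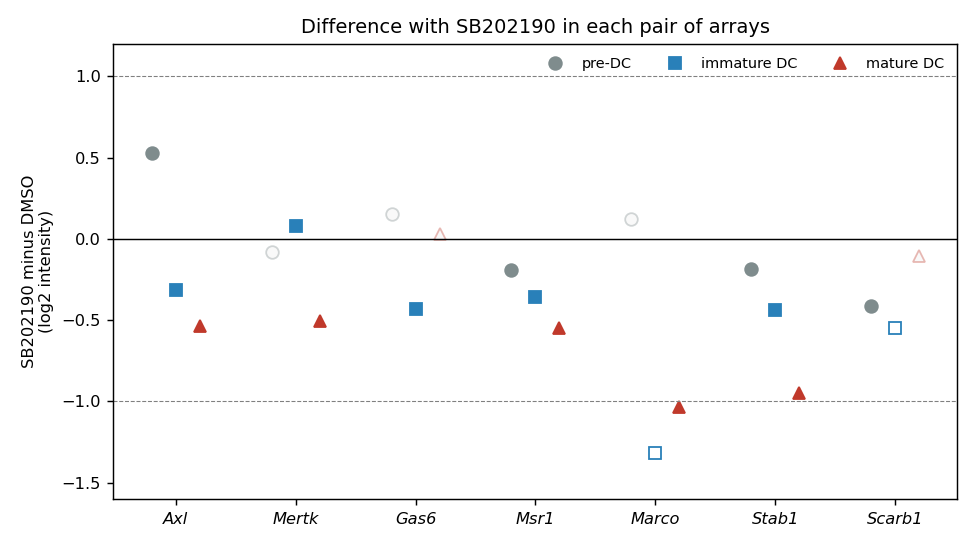
Log2 intensity with SB202190 minus that with DMSO (y axis) for the 7 members tested (x axis) in the pre-DC (grey circles), immature DC (blue squares) and mature DC (red triangles) pairs; open symbols have 1 of 2 arrays above background, pale ones none, and dashed lines mark 2-fold. Marco lies lowest at -1.32 and -1.03, and the highest point is Axl in pre-DC, at 0.53.

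Genes that work beside the members were read from lists, none of which was picked for its response, although earlier results of these data were known. Their counts stand beside 25.6% of all genes tested that rose and 25.4% that fell to immature DC, and 10.5% that rose and 11.1% that fell at maturation. A gene detected in some stages only entered the test through the stages where it is high, so no count is read as a result about its list. Of the other scavenger receptors, 7 of 15 were tested and 6 rose to immature DC, with a median of 1.23 over the tested genes. They included Cxcl16, a membrane chemokine that binds oxidised lipoprotein, which rose by 4.83 (SE 0.21, limma adjusted p = 1.35e-04), and Lrp1, a large endocytic receptor, which rose by 1.23 (SE 0.18, limma adjusted p = 0.00320) with 1 of 2 pre-DC arrays above background. At maturation 4 of the 7 rose and 0 fell, with a median of 0.69. Scarf1, a receptor that binds C1q on dying cells, rose by 1.33 (SE 0.19, limma adjusted p = 0.00864).

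Of the other apoptotic cell receptors, 8 of 13 were tested, of which 5 rose and 0 fell to immature DC (median 1.10), among them the lipid-sensing receptor Trem2 with 2.78 (SE 0.17) and Itgb5, which pairs with the alpha v integrin to bind MFG-E8, with 2.88 (SE 0.16). At maturation 1 rose, Cd14 by 2.33 (SE 0.18), and 3 fell, Cd300lf (-0.85), Havcr2 (-0.82) and Cd300a (-0.63). Havcr2 (TIM-3) and the CD300 proteins bind phosphatidylserine or related lipids.

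Of 10 bridging molecules and opsonins tested, 6 rose and 2 fell to immature DC, and 2 rose and 4 fell at maturation. Pros1 encodes protein S, a ligand of MERTK. Pros1 had log2 intensities of 6.58 and 6.72 in pre-DC, 8.73 and 7.97 in immature DC and 6.55 and 5.61 in mature DC. It was highest on both immature DC arrays and lower with SB202190 in the later pairs. It rose by 1.70 (SE 0.27, limma adjusted p = 0.00423) and then fell by 2.27 (SE 0.27, limma adjusted p = 0.00548). C1qa, a complement gene whose product helps coat dying cells, was below background on both pre-DC arrays and at least 19.9-fold higher in immature DC (limma adjusted p = 1.22e-04), and then fell by 1.59 on the log2 scale (SE 0.14, limma adjusted p = 0.00248).

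Of 13 engulfment genes tested, 3 rose and 4 fell to immature DC (median 0.26), near the shares of all genes, and 1 rose and 1 fell at maturation. The kinase gene Src, below background on both pre-DC arrays, was at least 3.54-fold higher in immature DC (limma adjusted p = 2.28e-04) and rose by a further 1.93 on the log2 scale (SE 0.13, limma adjusted p = 0.00152). Of 9 find-me and restraint genes, 4 rose and 3 fell to immature DC, and 2 rose and 1 fell at maturation. Among 8 nuclear receptors and factors tested, 1 rose to immature DC, and at maturation 1 rose and 1 fell. The lipid-sensing receptors Nr1h3 (LXR alpha) and Pparg, known activators of Mertk and Cd36 respectively, had treatment means of -1.29 (SE 0.21) and -0.76 (SE 0.15), each with a limma adjusted p of 0.445; Nr1h3 was below background on the immature DC array with SB202190. The median treatment difference was -0.35 for the other apoptotic cell receptors, -0.22 for the nuclear receptors and factors, -0.10 for the other scavenger receptors, -0.04 for bridging molecules, -0.02 for find-me and restraint genes and 0.01 for the engulfment genes. None of these genes passed for the treatment.

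The genes most like each member were those with the smallest root mean square difference between centred profiles over the 6 arrays, among 4316 tested genes that spanned at least 1 on the log2 scale. For Mertk they were Igf1 (0.24), Htra3 (0.32) and Dmrta2 (0.32), and for Axl Synpo (0.14), Espn (0.14) and Deptor (0.16). For Msr1 they were Gab1 (0.041), Gpnmb (0.069) and Pid1 (0.093), and for Marco Trim29 (0.21), Mt2 (0.33) and Sgk1 (0.33). Gas6 lay nearest to Gm4951 (0.070), Gpr171 (0.16) and Hsd11b2 (0.16). Scarb1 lay nearest to Trim16 (0.089), Depdc1a (0.12) and Zhx3 (0.13), and the brightest Stab1 probe to Cdc25b (0.084), Rasa3 (0.089) and Nt5dc2 (0.14). No member was among another member's 3 nearest genes. All profiles share the same 6 arrays, so these distances are descriptions.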

How the data were processed

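Gene expression was measured on 6 single-colour Illumina bead arrays of 45281 probes. The authors deposited intensity values that were not normalized, with a detection p-value for each probe and array, per the file headers. They also deposited processed intensity values, which served as an alternative; the sources used here do not give how these were made. Intensities were background-corrected with normexp in limma 3.58.1 (R 4.3.3) from the detection p-values with an offset of 16, quantile normalized and log2 transformed. Platform annotation named 34885 probes with 1 symbol, 18 with several and 10378 with none. A gene took its brightest probe among those detected (p under 0.01) on at least 1 array. The 9223 genes detected on at least 2 arrays were fitted with stage and treatment as additive terms (2 residual degrees of freedom, prior 3.73), with Benjamini-Hochberg adjusted p-values at 0.05. The p-values measure the spread between these arrays only, part of which may be technical. A group below background on all its arrays gives a bound against the lowest detected signal or its own, whichever was higher, written "at least N-fold". These bounds hold for this background correction with its offset of 16. Pairs within a stage have no replicates and were not tested. The members, lists and tests were chosen with earlier results of these data known. All members are named, with up to 4 genes of each pathway list by size, past the threshold for the steps, and the 3 most alike genes of each member; Nt5dc2 was followed after the probes were seen. Alternatives changed background correction, offset, scaling, filters, probe choice, block, moderation and arrays. Promoter windows and gene order came from RefSeq (GRCm38.p6); no genome was used.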

Additional observations from a re-analysis of the deposited data

Results flagged for a closer look

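The difference between SB202190 and DMSO changed sign between stages for 2 members, with 1 pair of arrays at each stage, and the change was not tested. Axl was higher with SB202190 in pre-DC (0.53 on the log2 scale) and lower in immature DC (-0.31) and mature DC (-0.53). Mertk had 0.082 in immature DC and -0.51 in mature DC. The Mertk value in immature DC is close to 0, so its sign there carries little.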

How the results depend on the processing

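The labels carry no replicate numbers; the stage pairs SB202190 with DMSO in the fit for treatment, and the treatment was the block in the fit for steps. Without these blocks 0, 4503 and 1793 genes were called for treatment and the first and second step. The count of genes called for treatment was 0, became 1 with trend and robust moderation and ran from 0 to 41 when 1 array was left out, the 41 without either pre-DC array. For pre-DC to immature DC it was 4701, and 2588 to 4708 with 1 array left out, the lowest without the immature DC array with SB202190. For immature to mature DC it was 1987, and 573 to 2545 with 1 array left out, the lowest without the immature DC array with DMSO. Without the immature DC array with SB202190, the mature DC array with DMSO or that with SB202190 it was 795, 858 and 666. Such fits rest on fewer arrays. The rises of Mertk, Msr1, Axl and Gas6 to immature DC and the fall of Gas6 to mature DC passed in every alternative in which the gene was tested (15 or 16 each), with lowest sizes of 2.37, 1.28, 1.28, 0.61 and -0.53. The treatment means of Mertk, Axl and Gas6 turned in sign with 1 array left out, with ranges of -0.29 to 9.3e-04, -0.42 to 0.11 and -0.20 to 0.10, and the Msr1 step to mature DC ran from -0.043 (without the mature DC array with DMSO) to 0.23. Stab1 turned with the mean of its detected probes, to 0.74 for immature DC minus pre-DC, 0.48 for mature minus immature DC and 0.23 for the pre-DC pair, and with its other probes to 1.28 and 1.53 (ILMN_1231355) and 1.25 and 1.09 (ILMN_2727432). Of 410 recomputed values for the members, 355 kept direction and call or stayed within 1 SD, 14 turned in sign, 24 lost a call, 8 gained one and 9 moved by more than 1 SD. Other than for Stab1, where the probes differ, and apart from fewer arrays, the cause was not tested. Values that rest on signals near background, for Marco, Scarb1, Gas6 and Mertk, depended on background correction, as did the rise of Msr1. Without it the fitted rise to immature DC was 0.61 in place of 1.66 for Gas6 and 2.37 in place of 4.10 for Mertk. For Msr1 it was 1.28 in place of 2.19.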
